A study of Homo sapiens with 6 samples.

Results

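The zinc finger genes of human chromosome 19 were described in NALM6, a long-established human cell line grown from a B-cell precursor leukemia. The members were all protein-coding genes on chromosome 19 in GENCODE 29 whose symbol is ZNF followed by a digit, with ZNF473 left out. No measured value is part of that rule, but it was set with earlier results of these data known. The rule gave 248 genes among the genes of the annotation, of which 206 had at least 1 listed transcript and 199 were tested, out of 12952 genes tested in all. Of the other members, 42 had no listed transcript and 7 were listed but stayed under the minimum of a mean of 0.5 FPKM over the 6 libraries. FPKM is a fragment count scaled to transcript length and library size, and here it was summed over the transcripts of a gene.

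The 3 verteporfin libraries came from cells kept for 48 h with verteporfin, a porphyrin used, among other things, to keep the coactivator YAP from TEAD factors, at 0.6 mmol/L as the labels state it. The 3 DMSO libraries came from cells kept for the same 48 h with DMSO, the solvent. Both groups are the same unmodified line, maintained in RPMI medium with 10% FBS, a single leukemia line and therefore no model of normal B cells. The labels do not state whether the replicates are separate cultures, and every p-value therefore reflects library-to-library spread of possibly technical origin. Values per library are given below in the order of replicates 1, 2 and 3.

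Zinc fingers of this family fold around a zinc ion held by a pair of cysteines and a pair of histidines, and rows of them read DNA sequence. Many proteins of the family also carry a KRAB domain near the start, which recruits TRIM28 (KAP1) and, through it, the histone methyltransferase SETDB1 and heterochromatin proteins. Such KRAB zinc finger proteins are known above all as repressors of transposable elements. Their genes lie in clusters on chromosome 19 that arose by tandem duplication, and those clusters carry heterochromatin marks themselves.

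The first zinc finger is shown for 3 members to make the repeated unit visible: the member of highest fold change with groups apart (ZNF506), the member of lowest fold change with groups apart (ZNF550) and the most abundant member (ZNF787). Each line is coding sequence read 5′ to 3′ from a GENCODE 29 transcript of a gene on chromosome 19, and capitals mark the codons of the metal-binding cysteines and histidines.
ZNF506: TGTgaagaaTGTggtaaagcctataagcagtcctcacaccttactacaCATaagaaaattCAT
ZNF550: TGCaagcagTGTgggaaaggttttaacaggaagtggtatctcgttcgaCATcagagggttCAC
ZNF787: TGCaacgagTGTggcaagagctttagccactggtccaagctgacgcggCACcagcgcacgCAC
The spacing of the 4 capital codons is the same in all 3, and the bases between them differ. By the same letter pattern the encoded proteins held 8, 8 and 7 fingers in ZNF506, ZNF550 and ZNF787.

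The libraries differed in ways that touch every result below. The share of all listed transcripts at exactly 0 FPKM was 11.3%, 5.23% and 7.91% in verteporfin libraries, against 14.0%, 14.5% and 18.7% in DMSO libraries, so the groups did not overlap. The means were 8.16% ± 3.07 and 15.7% ± 2.58 in verteporfin and DMSO libraries (SD, n = 3 each), a difference of -7.56 percentage points with p = 0.1 in a 2-sided exact permutation test, the smallest p that 3 against 3 allows. The ratio of the median FPKM of protein-coding genes with transcripts under 45% GC to that of genes at 55% GC or more was 0.275, 0.973 and 0.490 in verteporfin libraries, against 0.284, 0.518 and 0.358 in DMSO libraries. The libraries numbered 2 stood highest in that ratio within their groups. Of 14 markers of B-cell precursors, 13 were listed, with summed FPKM of 1321 to 2142 in verteporfin libraries and 1696 to 2035 in DMSO libraries. Of 19 markers of T, myeloid, erythroid, epithelial, fibroblast and endothelial cells, 2 were listed (LYZ and KRT19), with sums of 1.42 to 2.05 and 2.01 to 4.10 FPKM in verteporfin and DMSO libraries.

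No chromosome 19 ZNF gene passed the threshold, yet as a group their values lay higher with verteporfin. The log2 fold change, verteporfin minus DMSO on log2(FPKM + 1), was above 0 for 144 of the 199 tested members and below 0 for 55, with a median of 0.29. Over all genes tested 50.7% were above 0 and the median was 0.01. In limma's test with Benjamini-Hochberg adjustment over all genes, 0 members were higher and 0 lower at an adjusted p under 0.05, against 2 genes (0.0154%) higher and 0 (0%) lower among all genes. At an unadjusted p under 0.05, 15 members were higher and 1 was lower, which is 7.54% and 0.503% of members against a background of 4.36% and 4.48%. The 3 verteporfin values all exceeded the 3 DMSO values for 26 members (13.1%), against 6.49% of all genes, and all lay under them for 3 members (1.51%), against 7.74%. Because a gene can pass the minimum through its higher group alone, the same was read over the 196 members with a mean of at least 0.5 FPKM in each group, of which 142 were above 0 with a median of 0.29. The number higher at the unadjusted p depended on single libraries. It was 38 without verteporfin replicate 1, 8 without verteporfin replicate 2 and 6 without verteporfin replicate 3. Without DMSO replicates 1, 2 and 3 it was 9, 18 and 8, and the number lower was 1 to 3 throughout. Over all 12952 genes the number in either direction moved too, at 1910, 1217, 854, 726, 1304 and 571 in the same order. With all 6 libraries that number was 1145. In the settings that leave out a library it was not split by direction, so the members' counts have no like background there. With library weights estimated in limma, 22 members were higher and 1 was lower at a limma adjusted p under 0.05, against 5.35% and 3% of all genes.

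The level of the family per library shows the same order more weakly. The median FPKM over the tested members was 4.36, 6.06 and 6.69 in verteporfin libraries, against 3.74, 5.299 and 3.95 in DMSO libraries. The lowest verteporfin library thus lay between the DMSO libraries. Set against the median of all tested genes in the same library, the members' median was 0.542, 0.622 and 0.668 times as high in verteporfin libraries and 0.460, 0.538 and 0.444 times in DMSO libraries, which just separates the groups. Summed FPKM of the members did not separate them, at 1489, 1505 and 1796 in verteporfin libraries and 1408, 1490 and 1534 in DMSO libraries. In bulk RNA a change in level per cell and a change in which cells were present cannot be told apart.

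**Figure D1:**
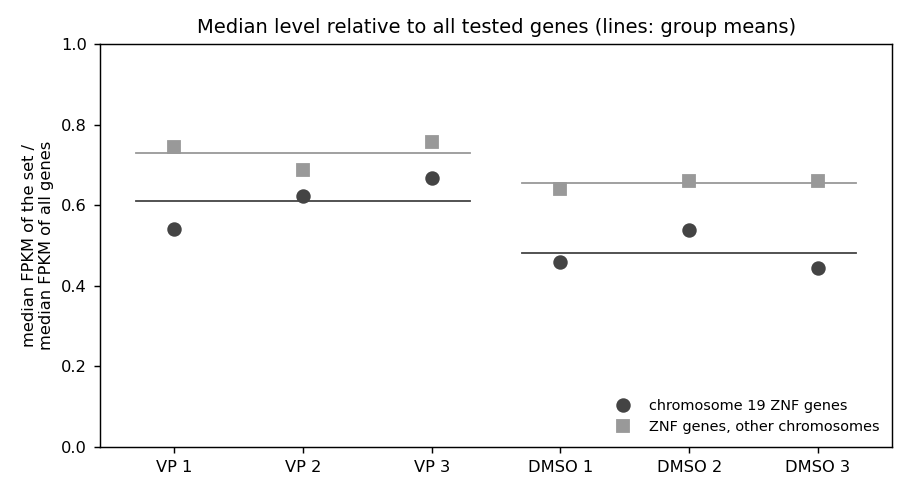
Median FPKM of the tested chromosome 19 ZNF genes (circles) and of ZNF genes of other chromosomes (squares), divided by the median FPKM of all tested genes, for each library; lines are group means. The circles lie at 0.542 to 0.668 in verteporfin (VP) libraries and at 0.444 to 0.538 in DMSO libraries.

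ZNF genes elsewhere in the genome leaned the same way, and the neighbours on chromosome 19 did not. Of 198 tested ZNF genes of other chromosomes, 133 were above 0, with a median log2 fold change of 0.20. Of 683 other protein-coding genes of chromosome 19, 223 were above 0, with a median of -0.19. That median was 0.001 without verteporfin replicate 2 and -0.26 without DMSO replicate 2. Their median GC content was 61.1% and their median level 23.2 FPKM, against 42.5% and 5.28 FPKM in members. Over protein-coding genes not named ZNF, on any chromosome, the median log2 fold change was -0.11 at 55 to 60% GC. At 60% GC or more it was -0.31. The part of GC content in this contrast was not tested. The difference between members and other ZNF genes was not tested, and both are read from the same 6 libraries. Among the 11 tested zinc finger genes of chromosome 19 with other symbols (ZFP, ZSCAN, ZBTB and ZIK), 6 were above 0, 0 passed the threshold and the median was 0.13. ZFP36, whose protein binds AU-rich messenger RNA with a different type of finger, had 39.9, 21.4 and 35.9 FPKM in verteporfin libraries, against 18.9, 19.9 and 19.5 FPKM in DMSO libraries, with a log2 fold change of 0.66. ZBTB7A, a repressor of globin genes, had 35.8, 15.1 and 29.7 FPKM in verteporfin libraries, against 47.8, 34.3 and 54.1 FPKM in DMSO libraries, a log2 fold change of -0.79 with an unadjusted limma p of 0.0487. Both were named after their values were seen, as the highest and lowest of the 11.

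Against all transcripts, zeros were more common in this family in DMSO libraries and about as common in verteporfin libraries. Over the 775 listed member transcripts, 91, 49 and 55 were at 0 in verteporfin libraries, against 150, 163 and 178 in DMSO libraries. That is 8.39% ± 2.93 in verteporfin libraries and 21.1% ± 1.81 in DMSO libraries (SD, n = 3 each). Over all transcripts the means were 8.16% and 15.7%, and over transcripts of tested ZNF genes of other chromosomes 8.63% and 17.3%. The gap between the groups was widest among weak transcripts. Below a mean of 1 FPKM, 14.9% ± 4.32 of member transcripts were at 0 in verteporfin libraries and 34.2% ± 3.06 in DMSO libraries. The shares were 15.7% and 29.8% over all transcripts of that level, and 14.8% and 30.9% over those of ZNF genes of other chromosomes. From 1 to 2 FPKM the shares for members were 3.03% and 13.6% in verteporfin and DMSO libraries, and over all transcripts 6.34% and 12.4%. From 2 to 5 FPKM the shares were 1.83% and 5.02% for members and 3.54% and 7.27% for all transcripts, again verteporfin before DMSO. At 5 FPKM or more they were 0% and 0.617% for members and 1.57% and 2.97% for all transcripts. In DMSO libraries the share was thus higher for members than for all transcripts below 2 FPKM and lower above it, a difference that was not tested.

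**Figure D2:**
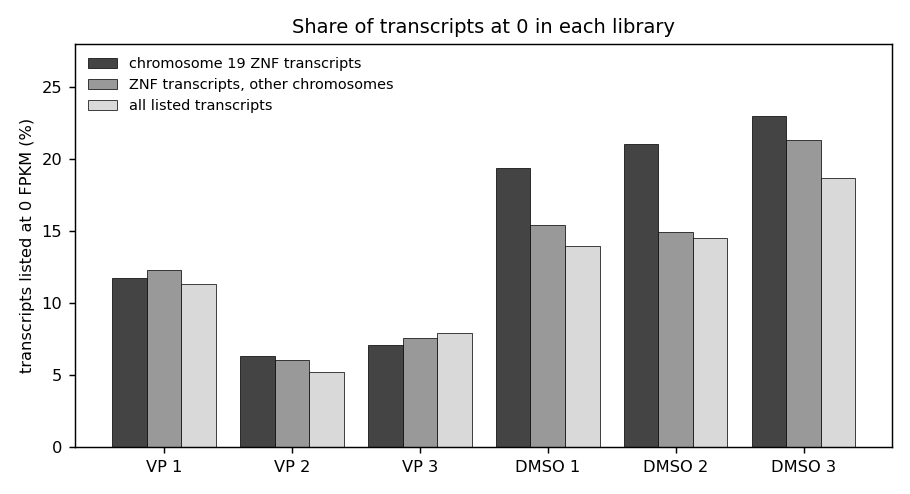
Share of transcripts at 0 FPKM in each library, in percent, for transcripts of chromosome 19 ZNF genes, of ZNF genes of other chromosomes and for all listed transcripts. The dark bars stand at 6.32% to 11.7% in verteporfin (VP) libraries and 19.4% to 23.0% in DMSO libraries.

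Because of these zeros, genes were rebuilt from only those transcripts that were above 0 in all 6 libraries, a choice made after the zeros were seen. This kept 184 members, of which 120 were above 0, and their median log2 difference was 0.18, against -0.06 over all 12064 genes rebuilt in the same way. The members' median was thus lower when transcripts with zeros were left out and still above that of all genes. Whether a 0 stands for absent RNA or for a failed estimate was not tested.

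Among single members, the highest fold changes with groups apart belonged to genes encoding KRAB zinc finger proteins. ZNF506 had 6.69, 8.78 and 9.16 FPKM in verteporfin libraries, against 1.55, 2.98 and 2.60 FPKM in DMSO libraries. Its log2 fold change was 1.46 ± 0.34 (SE), with a limma adjusted p of 0.346, the lowest of any member. ZNF772 had 6.38, 11.4 and 8.03 FPKM in verteporfin libraries, against 2.45, 4.52 and 2.49 FPKM in DMSO libraries, and its log2 fold change was 1.21 (limma adjusted p = 0.418). In both genes every verteporfin library lay above every DMSO library, as the rule for naming them required. ZNF682 had 7.18, 4.71 and 10.9 FPKM in verteporfin libraries, against 3.70, 1.86 and 2.87 FPKM in DMSO libraries, a log2 fold change of 1.14 (limma adjusted p = 0.448). ZNF559 was even within groups, at 8.59, 8.48 and 7.68 FPKM in verteporfin libraries, against 4.19, 3.23 and 2.87 FPKM in DMSO libraries, a log2 fold change of 1.07 (limma adjusted p = 0.418). ZNF559 also overlaps a readthrough gene, ZNF559-ZNF177, and 12.6% of the 75-base words of its transcript occur in transcripts of other genes.

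The next members by size had lower levels or lower folds. ZNF780A had 1.85, 4.28 and 3.54 FPKM in verteporfin libraries, against 0.614, 1.11 and 1.42 FPKM in DMSO libraries, a log2 fold change of 1.02. ZNF805 had 9.62, 11.8 and 14.1 FPKM in verteporfin libraries, against 5.01, 6.33 and 4.65 FPKM in DMSO libraries, also 1.02 on the log2 scale. ZNF304, known in colorectal cancer cells for recruiting a TRIM28-containing silencing complex to tumor suppressor genes, had 4.04, 8.28 and 9.89 FPKM in verteporfin libraries, against 2.64, 2.90 and 3.40 FPKM in DMSO libraries. In ZNF304 the lowest verteporfin library came close to the highest DMSO library. ZNF730 had 3.68, 4.56 and 3.13 FPKM with verteporfin, against 1.80, 2.01 and 0.660 FPKM with DMSO. ZNF227 had 12.2, 18.97 and 18.5 FPKM with verteporfin, against 7.34, 9.43 and 8.14 FPKM with DMSO, the highest level among these 10 genes. ZNF432 had 4.99, 7.96 and 8.38 FPKM with verteporfin, against 4.07, 3.99 and 2.17 FPKM with DMSO. The log2 fold changes of ZNF304, ZNF730, ZNF227 and ZNF432 were 1.01, 0.98, 0.90 and 0.88, each with a limma adjusted p between 0.453 and 0.519.

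Groups apart in the other direction were rare. ZNF550 had 7.90, 6.22 and 5.52 FPKM in verteporfin libraries, against 14.4, 9.61 and 8.75 FPKM in DMSO libraries, a log2 fold change of -0.64 (limma adjusted p = 0.593). Much of it lay in 1 transcript, ENST00000595560, annotated as a retained intron, which held 58.1% of the gene's FPKM and had 5.38, 0.877 and 1.12 FPKM in verteporfin libraries, against 13.3, 6.38 and 3.39 FPKM in DMSO libraries. With only transcripts annotated as protein coding, the log2 fold change of ZNF550 was 0.37 and so of the opposite sign. ZNF667 had 8.17, 3.47 and 8.18 FPKM in verteporfin libraries, against 10.2, 8.48 and 8.35 FPKM in DMSO libraries. Its fold change of -0.47 on the log2 scale rested mostly on verteporfin replicate 2, since the other verteporfin libraries lay just under the DMSO libraries. The third member with groups apart in this direction, ZNF556, had a mean under 1 FPKM.

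The lowest log2 fold change of any member was that of ZNF579, which falls outside the naming rule and was picked after its values were seen. It had 27.1, 8.21 and 11.2 FPKM in verteporfin libraries, against 36.5, 26.9 and 59.7 FPKM in DMSO libraries, a log2 fold change of -1.44 ± 0.44 (SE) with a limma adjusted p of 0.422. The groups overlapped through verteporfin replicate 1 and DMSO replicate 2. ZNF579 was the 1 member lower at an unadjusted p under 0.05.

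**Figure D3:**
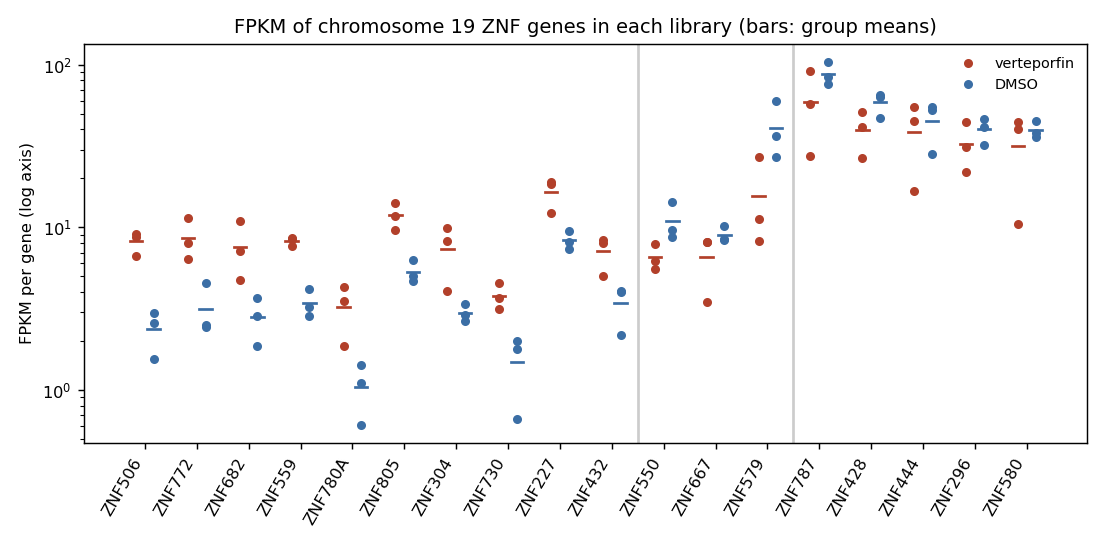
FPKM per gene (log axis) of named members in each library; bars are group means, verteporfin left of DMSO for each gene. The first 10 genes have higher verteporfin values with groups apart, ZNF550 and ZNF667 have lower ones, ZNF579 overlaps, and the 5 most abundant members on the right overlap.

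The 5 most abundant members all lay lower on average with verteporfin, and in each the groups overlapped. None carries the KRAB letter pattern defined below. ZNF787 had 91.3, 27.6 and 57.4 FPKM in verteporfin libraries, against 84.1, 75.6 and 104 FPKM in DMSO libraries, a log2 fold change of -0.72. ZNF428, which holds a single finger, had 41.6, 26.7 and 50.8 FPKM with verteporfin, against 63.7, 47.1 and 65.3 FPKM with DMSO. ZNF444, known as an activator of an endothelial scavenger receptor gene, had 54.5, 16.6 and 44.9 FPKM with verteporfin, against 52.8, 28.4 and 54.7 FPKM with DMSO. In these 3 genes, as in the next pair, verteporfin replicate 2 was the lowest of the 6 libraries. ZNF296, linked to pluripotency in mouse cells, had 31.4, 21.9 and 44.3 FPKM with verteporfin, against 46.6, 31.9 and 41.4 FPKM with DMSO. ZNF580 had 40.1, 10.5 and 44.4 FPKM with verteporfin, against 44.9, 35.7 and 38.2 FPKM with DMSO. Without verteporfin replicate 2 the log2 fold changes of ZNF444 and ZNF580 were 0.18 and 0.10, so their sign changed.

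Among fixed members known as repressors of transposable elements, none passed the threshold and all had groups that overlapped. ZNF91, which silences SVA elements, had 3.31, 8.85 and 8.55 FPKM in verteporfin libraries, against 3.35, 4.96 and 1.79 FPKM in DMSO libraries, a log2 fold change of 0.83 (limma adjusted p = 0.607). The verteporfin group was split, with replicate 1 among the DMSO values. ZNF93, which silences L1 elements, had 6.25, 17.2 and 5.74 FPKM with verteporfin, against 4.69, 13.4 and 2.91 FPKM with DMSO, and the libraries numbered 2 were highest in each group. ZNF808, which acts on MER elements during pancreas development, had 7.91, 7.001 and 10.7 FPKM with verteporfin, against 7.999, 12.3 and 6.12 FPKM with DMSO, a log2 fold change of -0.01. ZNF611 and ZNF765, from the same stretch of the chromosome as ZNF808, had log2 fold changes of 0.18 and 0.24 with groups that overlapped.

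Fixed members with other known roles follow. ZNF274, which brings SETDB1 to the ends of other zinc finger genes, had 41.2, 24.2 and 50.2 FPKM in verteporfin libraries, against 27.3, 25.8 and 32.4 FPKM in DMSO libraries, a log2 fold change of 0.37. ZNF331, an imprinted gene, had 12.54, 8.98 and 12.9 FPKM with verteporfin, against 16.8, 26.7 and 12.7 FPKM with DMSO, a log2 fold change of -0.62. ZNF43, from the cluster next to the centromere, had 12.9, 19.4 and 16.6 FPKM with verteporfin, against 10.9, 10.96 and 11.6 FPKM with DMSO. Its log2 fold change was 0.49 with groups apart. ZNF175, known for acting on retroviral promoters in macrophages, also had groups apart, at 5.65, 4.71 and 5.12 FPKM with verteporfin, against 2.56, 4.37 and 3.59 FPKM with DMSO. ZNF85 and ZNF675, the second of which binds TRAF6, had log2 fold changes of 0.75 and 0.31 with groups that overlapped. ZNF146, a protein made almost wholly of fingers, had 0.34, and ZNF260 had 0.13. Near 0 lay ZNF224, a repressor of the aldolase A gene, at 0.00 and ZNF649 at 0.16, with ZNF581 at -0.02, ZNF317 at 0.19 and ZNF431 at -0.17. ZNF44 had 0.157, 5.99 and 5.24 FPKM with verteporfin, against 1.61, 2.94 and 2.85 FPKM with DMSO, so that 1 verteporfin library set its fold change of 0.12. ZNF382 had no listed transcript.

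At the level of single transcripts, 647 member transcripts were tested, 396 were above 0, and 0 passed the threshold, with a median log2 fold change of 0.15 against 0.00 over all 55148 transcripts tested. Of all transcripts, 0.0272% passed as higher and 0.00363% as lower, so that 0 of 647 is near the background. Some transcripts were at 0 throughout 1 group. In 14 members, 16 transcripts (2.06% of member transcripts) were at 0 in every DMSO library and above 0 in every verteporfin library, against 1.23% of all transcripts. The reverse held for 1 member transcript, of ZNF615, against 0.0803% of all transcripts. The transcript ENST00000587461 of ZNF506 had 3.57, 2.44 and 2.99 FPKM in verteporfin libraries and was listed at 0 in all 3 DMSO libraries. Left without it, ZNF506 had 3.12, 6.34 and 6.18 FPKM in verteporfin libraries, against 1.55, 2.98 and 2.60 FPKM in DMSO libraries, and its log2 difference was 0.86 in place of 1.46. The transcript ENST00000594839 of ZNF274 had 9.38, 6.15 and 12.7 FPKM with verteporfin and was listed at 0 in all DMSO libraries. ZNF274 without it had a log2 difference of -0.03, so that its whole difference lay in that transcript. For ZNF682 the value without its on and off transcript was 0.93 in place of 1.14.

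Members differed in value by their position along the chromosome. Split wherever neighbours start more than 1 Mb apart, they formed 15 groups. The cluster from ZNF101 to ZNF254, next to the centromere, had 27 tested of 37 annotated members, with 22 above 0 and a median log2 fold change of 0.49, the highest of the 7 clusters with at least 15 tested members. It holds ZNF506, ZNF682, ZNF730, ZNF91, ZNF93, ZNF43 and ZNF85, and its median GC content, 37.5%, was the lowest of the 7. On leaving out single libraries its median log2 fold change was 0.33 to 0.70, and its rank changed. The cluster from ZNF575 to ZNF296 stood higher without DMSO replicate 1 (0.389 against 0.359) and without DMSO replicate 3 (0.419 against 0.413). The cluster from ZNF175 to ZNF331 had 31 of 35 above 0 and a median of 0.36. The clusters ZNF653 to ZNF791 and ZNF557 to ZNF846 had 20 of 23 and 11 of 15 above 0, with medians of 0.24 and 0.29. In the cluster from ZNF575 to ZNF296, 11 of 15 were above 0 (median 0.31), and in that from ZNF565 to ZNF573, 13 of 17 (median 0.13). The largest cluster, ZNF628 to ZNF446 at the end of the long arm, was even, with 25 of 52 above 0 and a median of -0.01.

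That last cluster begins with 9 tested members in a row, ZNF628 to ZNF444, that lack the KRAB letter pattern, a run noticed in the data. All 9 were below 0, with a median of -0.32 and a GC content of 59.6% to 71.1%, and they include ZNF579, ZNF580, ZNF581 and ZNF787. The other 43 members of the cluster had 25 above 0 and a median of 0.24. No value in either set passed the threshold. In all 9 genes verteporfin replicate 2 was the lowest of the 6 libraries. Without it, 7 of the 9 were above 0, with a median of 0.16, and ZNF579 and ZNF787 stayed below 0 at -1.11 and -0.26. The median of the whole cluster was then 0.18, with 38 of 52 above 0. With DMSO replicate 2 left out instead, the median of the whole cluster was -0.05, with 25 of 52 above 0.

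**Figure D4:**
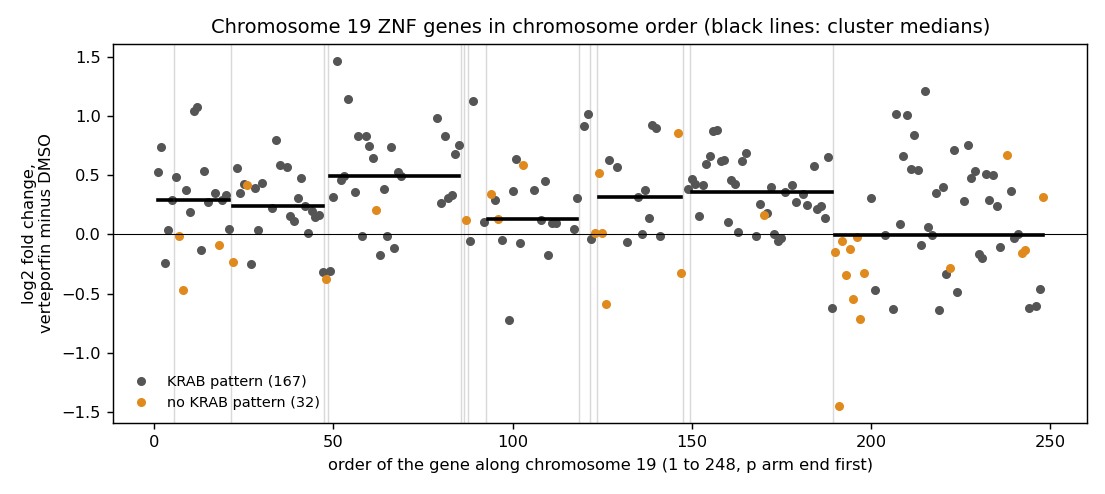
Log2 fold change (verteporfin minus DMSO) of the 199 tested members against their order along chromosome 19; grey lines divide the clusters and black lines are medians of clusters with at least 5 tested members. The run of orange points near order 190 to 198 lies below 0, where verteporfin replicate 2 was the lowest library in all 9 genes, while the cluster from ZNF101 to ZNF254 has a median of 0.49.

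The same division appeared with the KRAB letter pattern. This is a match to letters of the KRAB box within the first 200 residues of the translated coding sequence. It is not a domain call, so a member can match without the domain or carry the domain without a match. Of 167 tested members with the pattern, 131 were above 0, with a median log2 fold change of 0.33, and 25 had higher values with groups apart. Of 32 members without it, 13 were above 0, with a median of -0.07, and 1 had higher values with groups apart. Higher values with groups apart were thus found in 14.97% of members with the pattern and 3.125% without, against 6.49% of all genes. Whether either share differs from that of all genes was not tested. Without verteporfin replicate 2 the medians were 0.27 with the pattern and 0.10 without, so that the sign of the second set changed. Without DMSO replicate 2 they were 0.42 and -0.13. Median GC content of the transcripts moved with this split, at 42.3% with the pattern and 61.2% without. The number of fingers moved with it too. Members with 0 to 4 fingers had a median of -0.04 (n = 10), those with 5 to 9 had 0.24 (n = 43), those with 10 to 14 had 0.31 (n = 83), those with 15 to 19 had 0.35 (n = 51) and those with 20 or more had 0.42 (n = 12). The members with 0 to 4 fingers had 0.13 without verteporfin replicate 2 and -0.17 without DMSO replicate 2.

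GC content and level were therefore read directly, in bins chosen after the values were seen. Below 40% GC, 42 of 51 members were above 0 with a median of 0.38, and other protein-coding genes not named ZNF had 0.20. From 40 to 45% GC, 68 of 87 members were above 0 with a median of 0.31, against 0.12 in the other genes. From 45 to 50% the medians were 0.29 and 0.03. ZNF genes of other chromosomes had 0.32, 0.34 and 0.25 in these 3 bins, so that values like those of the members were found outside chromosome 19. From 55 to 60% GC, members had a median of -0.24 (n = 6), against -0.11 in the other genes. At 60% GC or more, 2 of 18 members were above 0 with a median of -0.19, against -0.31 in the other genes. Here too verteporfin replicate 2 decided the direction, since without it 13 of the 18 were above 0 with a median of 0.16, against -0.02 in the other genes. Under 40% GC the median without it was 0.31. By level, members had medians of 0.31, 0.40, 0.26 and -0.03 at 0.5 to 2, 2 to 5, 5 to 10 and 10 FPKM or more. Protein-coding genes had 0.10, 0.18, 0.10 and -0.09 in the same bins. ZNF genes of other chromosomes had 0.45, 0.31, 0.24 and 0.07, so values near those of the members were again found outside chromosome 19. The members of 10 FPKM or more had 0.10 without verteporfin replicate 2 and -0.09 without DMSO replicate 2. The part of GC content, of level and of the zeros in these fold changes was not tested.

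**Figure D5:**
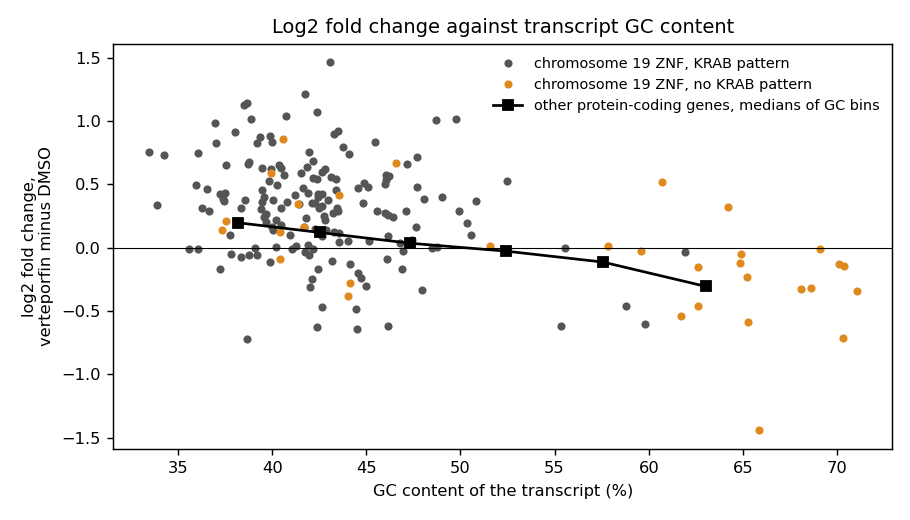
Log2 fold change (verteporfin minus DMSO) of each tested member against the GC content of its transcript in percent, with and without the KRAB letter pattern; black squares are medians of other protein-coding genes in GC bins. Members under 40% GC have a median of 0.38 and those at 60% or more have -0.19. The second median is 0.16 without verteporfin replicate 2 and -0.42 without DMSO replicate 2.

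The partners through which KRAB zinc finger proteins act were read from a list of their own. Of 30 genes listed for this machinery, 29 were tested, 8 were above 0 and 21 below, with a median log2 fold change of -0.09, and 0 passed the threshold in either direction, against 0.0154% of all genes higher and 0% lower. Most of these genes are abundant, and protein-coding genes of 10 FPKM or more had the same median of -0.09. Without verteporfin replicate 1 the median was 0.002, and without verteporfin replicate 2 it was -0.27. At an unadjusted p under 0.05, 0 were higher, against 4.36% of all genes, and 3 were lower, against 4.48%, namely RBBP7 and MBD3, which belong to the NuRD deacetylase complex, and SUV39H1, a histone methyltransferase, all 3 chosen for naming after their values were seen. TRIM28, the corepressor that binds the KRAB domain, had 249, 138 and 215 FPKM in verteporfin libraries, against 333, 241 and 374 FPKM in DMSO libraries. Its log2 fold change was -0.67 (limma adjusted p = 0.565), and the groups overlapped by verteporfin replicate 1 and DMSO replicate 2. SETDB1 had 24.6, 34.9 and 20.7 FPKM with verteporfin, against 17.3, 26.5 and 22.1 FPKM with DMSO. ATF7IP, which stabilizes SETDB1, had 9.82, 16.4 and 20.4 FPKM with verteporfin, against 6.39, 10.2 and 8.84 FPKM with DMSO, a log2 fold change of 0.77 (limma adjusted p = 0.563). CBX5, a heterochromatin protein, had a log2 fold change of -0.11 with groups that overlapped. Of the 29 tested genes, 0 had higher values with groups apart, against 6.49% of all genes. Lower values with groups apart were found for 6, namely CBX3, SUV39H1, CHD4, MTA1, RBBP7 and DAXX. That share was 7.74% over all genes and 10.5% over protein-coding genes of 10 FPKM or more. CBX3 had a log2 fold change of -0.59 (limma adjusted p = 0.574).

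Promoters were read because members leaned the same way as a group. Of the 199 tested members, 182 had an entry in the RefSeq promoter table (GRCh38.p14), a window that spans the start of the gene. The letters CCGGAAG, the core of sites of ETS factors, were found on either strand in 83 of them (45.6%), against 21.5% of 8570 promoters of tested protein-coding genes and 10.7% of all 27305 promoters. The share was 49.0% in members with the KRAB letter pattern and 29.03% in those without. GGGCGG, a core of SP factor sites, was in 69.8% of member promoters, against 71.5% of tested protein-coding genes and 44.6% of all. CACGTG, the E-box, was in 4.40%, against 10.5% and 7.43%. TGACGTCA, a CREB site, was in 3.85%, against 3.42% and 1.98%, and TGATGCAA, an ATF4 type site, was in 0.549%, against 0.432% and 0.923%. CCGGAAG and its reverse CTTCCGG can overlap in a palindrome, and these matches are descriptions of letters only.

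Promoters of 3 members follow, those of ZNF772, which had the second highest fold change with groups apart, of ZNF550 and of ZNF787. All are on the minus strand and are written 5′ to 3′ along the gene, with the searched motifs in capitals. They lie at chr19:57477517-57477816, chr19:57559814-57560113 and chr19:56121246-56121545 in the same order.
ZNF772: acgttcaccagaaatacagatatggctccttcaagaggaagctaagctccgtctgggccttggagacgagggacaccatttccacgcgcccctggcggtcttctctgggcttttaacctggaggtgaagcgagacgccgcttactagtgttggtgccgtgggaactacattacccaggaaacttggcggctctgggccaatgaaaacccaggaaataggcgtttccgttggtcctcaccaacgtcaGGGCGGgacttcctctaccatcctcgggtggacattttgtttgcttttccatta
ZNF550: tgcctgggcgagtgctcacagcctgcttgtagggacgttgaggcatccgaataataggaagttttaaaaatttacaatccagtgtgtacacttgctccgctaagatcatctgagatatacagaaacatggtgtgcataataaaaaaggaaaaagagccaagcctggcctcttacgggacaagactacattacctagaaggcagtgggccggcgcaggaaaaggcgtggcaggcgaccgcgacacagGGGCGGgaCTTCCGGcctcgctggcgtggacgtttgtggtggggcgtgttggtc
ZNF787: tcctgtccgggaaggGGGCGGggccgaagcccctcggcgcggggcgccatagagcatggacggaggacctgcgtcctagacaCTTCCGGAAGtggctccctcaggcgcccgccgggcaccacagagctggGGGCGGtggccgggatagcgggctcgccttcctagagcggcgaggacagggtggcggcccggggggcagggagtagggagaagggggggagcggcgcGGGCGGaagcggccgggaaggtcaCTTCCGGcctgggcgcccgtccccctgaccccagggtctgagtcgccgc
The promoter of ZNF772 held 1 match, a GGGCGG near the start of the gene, and that of ZNF550 held a GGGCGG directly beside a CTTCCGG. The promoter of ZNF787 held 6 matches, including the palindrome, at a GC content of 75%, against 54% and 53% in ZNF772 and ZNF550.

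Some members cannot be told apart well by short reads. The median share of 75-base words of a member's transcript that occur in transcripts of other genes was 0.182%, but it exceeded 50% in 9 tested members. The highest was ZNF320 at 99.5%, with a log2 fold change of -0.03, and ZNF625 and ZNF177 had 99.0% and 96.7% with 0.57 and 0.54. ZNF506, ZNF772 and ZNF682 had 1.62%, 6.60% and 0%.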

How the data were processed

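The authors deposited FPKM per Ensembl transcript. Per the submitters' processing notes, the build was hg18 and the tools included edgeR, STAR, StringTie 1.3.3, HISAT2 2.1.0, cutadapt and FastQC; which of them made the FPKM is not given in the sources used here. Libraries were made with a KAPA stranded kit from Trizol RNA, per the labels. Read depth is unknown, so the spread between libraries sets the precision. Further entries under repeated identifiers hold whole numbers of a unit not given in the sources used here and were not used. How the authors' estimation shared reads among transcripts and paralogs affects every sum and every value at 0.

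GENCODE 29 matched 61975 transcripts and left 275 unmatched; sums gave 13494 genes. The 12952 genes averaging 0.5 FPKM or more were tested on log2(FPKM + 1) in limma 3.58.1 under R 4.3.3 (variance trend, 2-sided), and p-values were adjusted by Benjamini-Hochberg over all of them, with a threshold of 0.05. No paired term was used. The test was tried on simulated data. Members, lists, rules and alternatives were chosen with earlier results of these data known. Named were members past the threshold, the 10 of largest fold change in each direction with at least 1 FPKM and groups apart, the 5 most abundant and a fixed list; others were chosen after their values were seen, as were the bins of level and GC content, the promoters of tested genes as a comparison 2 recomputations around zeros and medians of subsets without single libraries. Fingers, KRAB patterns, GC content and shared words came from the transcript with the longest coding sequence in GENCODE 29. Promoters are from RefSeq, GRCh38.p14, matched by symbol. Apart from the promoter windows, no gene coordinates are given because the build behind the values is uncertain. Alternatives were no minimum or 5 FPKM, quantile normalization, equal medians, pseudocounts of 0.1 and 0.01, rescaling without the 3 most abundant transcripts, no trend, library weights, a replicate block, protein-coding transcripts alone, single transcripts, a bound of 0.1 FPKM for zeros, and leaving out each library.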

Additional observations from a re-analysis of the deposited data

How the results depend on the processing

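The members' median log2 fold change stayed above 0 in every setting tried, between 0.15 (minimum of 5 FPKM, and single transcripts) and 0.41 (without verteporfin replicate 1). No member passed the threshold in any setting except with library weights, where 22 were higher and 1 (ZNF579) was lower, 23 in all, against 5.35% and 3% of all genes. Those weights gave verteporfin replicate 3 3.88 and verteporfin replicate 2 0.363, and their estimation did not fully converge. Over all genes, 2 passed in the main setting, 1081 with library weights, 84 with the replicate block, 0 with either pseudocount, equal medians, rescaling, no trend or protein-coding transcripts alone, and 0 to 12 on leaving out single libraries. With the replicate block, 25 members were higher at an unadjusted p under 0.05 in place of 15, 5 were lower in place of 1, and 0 passed the threshold. With library weights 68 were higher and 4 lower. The number in either direction over all 12952 genes rose as well, to 2291 with the block and 3568 with weights, in place of 1145. In these settings too it was not split by direction, so the members' counts have no like background. Same-numbered libraries correlated in their deviations by 0.389, 0.509 and 0.0985, and libraries of unlike numbers by -0.464 to 0.138. Only verteporfin replicate 3 correlated better with another number, DMSO replicate 1 (0.138). The numbers were not taken as pairs in the main setting because the labels do not say that equal numbers share a culture. Whether they do cannot be told from these values.

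Of 679 comparisons of 40 named genes with their main value, 34 changed sign, in 14 genes, and 11 passed the threshold, all 11 with library weights. With protein-coding transcripts alone ZNF550 was 0.37, ZNF260 -0.30 and ZNF224 -0.0040. ZNF224 was -0.037 with equal medians and -0.046 with quantile normalization. ZNF581 was 0.072 with quantile normalization and 0.12 with library weights, and ZNF808 was 0.40 with weights. ZNF44 was -0.29 and -0.46 with pseudocounts of 0.1 and 0.01, and -0.043 with quantile normalization. ZNF274 was -0.026 without its on and off transcript. On leaving out single libraries, ZNF444 ranged from -0.64 to 0.18, ZNF580 from -0.90 to 0.096, ZNF431 from -0.60 to 0.058, ZNF260 from -0.012 to 0.33, ZNF224 from -0.21 to 0.22, ZNF611 from -0.017 to 0.40, ZNF765 from -0.049 to 0.62, ZNF808 from -0.22 to 0.23, ZNF581 from -0.20 to 0.23, ZNF317 from -0.028 to 0.42, ZNF44 from -0.34 to 0.95 and CBX5 from -0.46 to 0.10. The causes were not tested. Read depth is unknown, so values near 0 FPKM cannot be given a counting error.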
